A study of Mus musculus with 6 samples.

Results

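Solute carriers are membrane proteins that move sugars, amino acids, nucleosides, ions, metals and vitamins across the plasma membrane and the membranes of organelles, either down a gradient or coupled to the flow of sodium, protons or another solute. A total of 310 gene symbols in the deposited oocyte table carried a solute carrier name outside the mitochondrial Slc25 family and apart from Slc14a1 and Slc38a4. Of these, the 127 genes with a mean of 1 RPKM or more over the 6 libraries (41.0%) are described here as the expressed solute carriers. RPKM is a read number divided by gene length and by the size of the library. The genes were chosen by these mean levels, which include both genotypes, so levels are given as a description with no test. Among the other 183 genes, 96 had a mean under 0.1 RPKM and 18 were listed at 0 in all libraries. Just above the threshold lay Slc6a14 at a mean of 1.02 RPKM, Slc5a8 at 1.03 and Slc7a7 at 1.04, and just below it Slc22a17 at 0.969 and Slc16a11 at 0.952 RPKM.

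The oocytes came from mouse ovaries, were dissected by hand, and formed 2 groups of 3 libraries each, wild type (WT) and Khdc3-null (KO). The product of Khdc3 belongs to the subcortical maternal complex of the egg. The labels name no strain, age, meiotic stage or number of oocytes or animals behind a library, so p-values measure the spread between these libraries, which may be technical. Khdc3 stood at 423, 425 and 502 RPKM in WT replicates 1, 2 and 3 and at 0.224, 0.217 and 0.113 RPKM in KO replicates 1, 2 and 3, so its level matched the genotype label in every library. Library totals were 34640170 to 43343444 reads. Oocyte markers such as Gdf9 and Zp3 (8 genes) summed to 13760 to 14580 RPKM in WT and 12720 to 13430 RPKM in KO, with a negative change in 7 of 8 and none called by limma, beside 136.6 to 413 RPKM over 12 granulosa and cumulus cell genes. On the second principal component (18.1% of the variance) KO replicate 1 scored -18.9 and the other KO libraries 9.5 and 10.6. Without KO replicate 1, 2 members were called, Slc43a3 and Slc3a2.

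The mammalian oocyte takes up little glucose itself. It relies on pyruvate and on nutrients passed from cumulus cells through gap junctions, and it imports glycine with the transporter GLYT1 to control its volume. It also accumulates zinc, which it needs to arrest and mature in meiosis and releases at fertilisation. Amino acid exchangers of the Slc7 family reach the cell surface joined to the heavy chain encoded by Slc3a2. Nucleosides and nucleobases move through carriers that include the Slc28 and Slc29 families and Slc43a3.

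The sequences below are promoter windows of the carriers that the levels and the comparison of genotypes turn on: Slc3a2 and Slc2a12, which were higher in KO, and Slc45a3 and Slc30a3, the most abundant members. Each covers 250 bases before and 50 bases after a start that RefSeq lists for the gene on GRCm38.p6 (the first in its table), written 5′ to 3′ on the strand of the gene. Capitals mark matches to GGGCGG (the GC box) or TATAAA (the TATA box) on either strand. The windows lie at chr19:8713848-8714147 (minus strand), chr10:22644761-22645060 (plus), chr1:131962665-131962964 (plus) and chr5:31108195-31108494 (minus).
Slc3a2: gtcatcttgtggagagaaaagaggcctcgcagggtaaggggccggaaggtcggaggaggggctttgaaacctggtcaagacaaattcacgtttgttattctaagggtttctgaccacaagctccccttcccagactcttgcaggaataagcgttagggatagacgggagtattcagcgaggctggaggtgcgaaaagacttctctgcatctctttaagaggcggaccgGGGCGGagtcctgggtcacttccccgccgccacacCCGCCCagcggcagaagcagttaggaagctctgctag
Slc2a12: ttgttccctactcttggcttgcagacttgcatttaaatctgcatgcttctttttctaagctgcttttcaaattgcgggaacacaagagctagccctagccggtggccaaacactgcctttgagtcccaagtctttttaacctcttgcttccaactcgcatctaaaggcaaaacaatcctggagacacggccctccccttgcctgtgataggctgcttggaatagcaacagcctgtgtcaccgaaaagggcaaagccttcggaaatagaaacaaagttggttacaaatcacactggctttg
Slc45a3: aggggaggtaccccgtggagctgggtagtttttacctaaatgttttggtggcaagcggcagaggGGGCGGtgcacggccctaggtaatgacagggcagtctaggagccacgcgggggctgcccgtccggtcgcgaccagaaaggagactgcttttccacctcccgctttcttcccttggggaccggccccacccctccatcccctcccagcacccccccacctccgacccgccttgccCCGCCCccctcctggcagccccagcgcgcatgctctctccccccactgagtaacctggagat
Slc30a3: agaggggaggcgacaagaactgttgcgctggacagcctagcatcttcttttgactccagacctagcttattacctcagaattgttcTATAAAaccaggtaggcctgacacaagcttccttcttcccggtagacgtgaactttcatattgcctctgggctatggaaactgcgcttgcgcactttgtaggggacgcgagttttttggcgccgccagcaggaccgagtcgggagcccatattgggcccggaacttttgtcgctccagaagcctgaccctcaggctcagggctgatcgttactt
Slc3a2 and Slc45a3 each held 2 GC boxes, Slc30a3 held 1 TATA box and Slc2a12 held neither. These windows had a GC content of 56% for Slc3a2, 47.0% for Slc2a12, 66.3% for Slc45a3 and 53.3% for Slc30a3. Promoter windows were found for 104 of the 127 members, and the Slc43a3 window is not among them. A GC box was present in 66.3% of the members' windows, in 65.4% of 7923 windows of tested genes and in 35.9% of all 27025 windows. The palindromic E-box CACGTG was found in 11.5% of members and 10.6% of tested genes, TATAAA in 8.65% and 6.63%, TAATTG, the core bound by the oocyte factor NOBOX, in 5.77% and 4.91%, and TGATGNAA, the composite element of ATF4, in 4.81% and 2.30%. Over all windows the shares were 7.24% for CACGTG, 14.2% for TATAAA, 8.15% for TAATTG and 4.06% for TGATGNAA. The members' shares of these motifs rest on 12, 9, 6 and 5 windows in the same order, and differences were not tested. Apart from the GC box and TATAAA, none of these motifs was found in the windows printed above. A match is a run of letters only, and the start used in oocytes may differ from the RefSeq start. The start in the Slc3a2 window lies 9472 bases inside the GENCODE gene span, and that of Slc45a3 52 bases before it.

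Sugar carriers included the most abundant member, Slc45a3, which belongs to a family of proton-coupled sugar transporters. It stood at 504, 508 and 515 RPKM in WT replicates 1, 2 and 3 and at 500.2, 487 and 473 RPKM in KO replicates 1, 2 and 3. The WT and KO values did not overlap, but the difference was small (log2 change -0.06 ± 0.05, SE; limma adjusted p = 0.56). Slc45a3 (chromosome 1, 131962967 to 131982969, plus strand, GRCm38) ranked 66 by mean level among all gene symbols and made up 24.2% of the summed RPKM of all members. Other members lie near it on chromosome 1, though not necessarily as the adjacent genes. Slc41a1, a magnesium carrier that starts 135.5 kb away, had a mean of 4.40 RPKM, and Slc26a9, a chloride carrier a further 83.5 kb away, 10.4 RPKM.

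The glucose carriers proper were far lower. Slc2a1, the GLUT1 transporter found in most cells, stood at 20.2, 23.1 and 22.0 RPKM in WT and at 17.9, 20.3 and 20.4 RPKM in KO (replicates 1, 2 and 3), with overlapping groups (log2 change -0.15 ± 0.08, SE; limma adjusted p = 0.37). Slc2a3 and Slc2a8, other members of the glucose carrier family, fell short of the level rule with means of 0.0440 and 0.817 RPKM. The remaining sugar carriers were Slc37a3 (7.76 RPKM), Slc2a12 (4.16), Slc50a1 (2.20), Slc2a10 (2.18), Slc5a10 (1.88) and Slc45a4 (1.22), each a mean over the 6 libraries. Without Slc45a3, the sugar carriers summed to 40.2 ± 1.21 RPKM in WT libraries and 39.9 ± 1.07 RPKM in KO libraries (SD, n = 3 each).

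Metal carriers formed a large class of 17 members and held 24.0% of the summed RPKM. Slc30a3, a zinc transporter of vesicles, was the next most abundant member of all at 186, 212 and 214 RPKM in WT and 206, 207 and 221 RPKM in KO (replicates 1, 2 and 3). The groups overlapped (limma adjusted p = 0.75), and WT replicate 1 was the lowest library. Its span overlaps Dnajc5g on the opposite strand, which had a mean of 5.10 RPKM. The zinc importers Slc39a6 and Slc39a10, also called ZIP6 and ZIP10, were present at nearly the same level, 88.0 ± 4.87 and 82.3 ± 4.46 RPKM in WT and 86.1 ± 3.35 and 91.0 ± 7.64 RPKM in KO (SD, n = 3 each; adjusted p = 0.85 and 0.37). The libraries of the 2 genes overlapped, at 82.6 to 92.1 RPKM for Slc39a6 and 79.2 to 97.8 RPKM for Slc39a10. Slc31a2, a copper carrier, followed at a mean of 31.0 RPKM, Slc30a5 at 16.3, Slc11a2, the iron importer DMT1, at 14.5 and Slc30a1, the zinc exporter of the plasma membrane, at 4.84 RPKM. None of the 17 was called, and the lowest adjusted p was 0.077, for Slc39a11 (3.26 ± 0.130 RPKM in WT and 2.10 ± 0.386 RPKM in KO).

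Amino acid carriers had 20 members, led by Slc3a2 and by Slc6a9, which encodes the glycine transporter GLYT1. Slc6a9 stood at 44.4, 49.2 and 43.8 RPKM in WT and 45.0, 49.6 and 51.7 RPKM in KO (replicates in order; limma adjusted p = 0.58). Slc7a5, the LAT1 exchanger of large neutral amino acids, had a mean of 16.4 RPKM, Slc7a2, an importer of arginine and lysine, 15.9, and Slc7a11, the cystine importer xCT, 9.59 RPKM. Slc38a9, the lysosomal arginine sensor of mTORC1 signalling, stood at 7.32 RPKM. The glutamine carrier Slc1a5, at a mean of 0.273 RPKM, and the creatine carrier Slc6a8, at 0.0882 RPKM, were not members.

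Nucleoside and nucleobase carriers had 5 members. Slc43a3, a carrier of purine nucleobases, was the highest at a mean of 10.8 RPKM, followed by the equilibrative nucleoside transporters Slc29a2 (2.78) and Slc29a3 (1.56), the concentrative transporter Slc28a1 (1.83) and Slc29a1 (1.11 RPKM). The purine nucleoside transporter Slc28a2 was at 0.0450 RPKM and not a member. Slc29a1 starts 35.7 kb from the start of Slc35b2, a member with a mean of 19.3 RPKM.

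Carriers of protons, sodium, potassium, chloride and bicarbonate had 14 members, and the summed level was 94.0 ± 5.46 RPKM in WT libraries and 97.3 ± 2.35 RPKM in KO libraries (SD, n = 3 each). The highest were Slc4a8, a sodium-dependent bicarbonate and chloride exchanger, at a mean of 16.2 RPKM, the sodium and proton exchanger gene Slc9b1 at 14.5 and Slc9a3 at 10.9 RPKM. Slc12a2, a cotransporter of sodium, potassium and chloride, stood at 10.6 RPKM. Slc4a2, the bicarbonate and chloride exchanger AE2, had a mean of 2.01 RPKM. Calcium and magnesium carriers were led by Slc41a2 (13.1 RPKM) and Slc24a3 (12.9), and anion carriers by Slc26a6 (24.9), the phosphate importer Slc20a1 (11.5) and Slc26a9. The sodium and calcium exchanger Slc8a1 was at 0.0805 RPKM.

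Other carriers above 20 RPKM were Slc23a2, an ascorbate transporter (75.3 RPKM), Slc35a4 (56.3), the choline transporter family gene Slc44a2 (34.4), the lysosomal histidine and peptide transporter Slc15a4 (26.4), Slc35e4 (26.2), Slc35b1 and Slc35a1, carriers of the endoplasmic reticulum and Golgi (24.7 and 23.4), and Slc16a13 of the monocarboxylate family (20.6 RPKM). Slc16a1, the lactate and pyruvate transporter MCT1, had a mean of 14.6 RPKM and Slc16a3, or MCT4, 0.340 RPKM. The serotonin carriers Slc18a2 of vesicles and Slc6a4 of the plasma membrane stood at 14.3 and 6.60 RPKM, the taurine carrier Slc6a6 at 8.77 and the carnitine carrier Slc22a5 at 5.25 RPKM. Slc10a6, of the bile acid and steroid carriers, stood at 8.90 RPKM and Slc33a1, the acetyl-CoA carrier of the endoplasmic reticulum, at 4.85 RPKM.

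**Figure D1:**
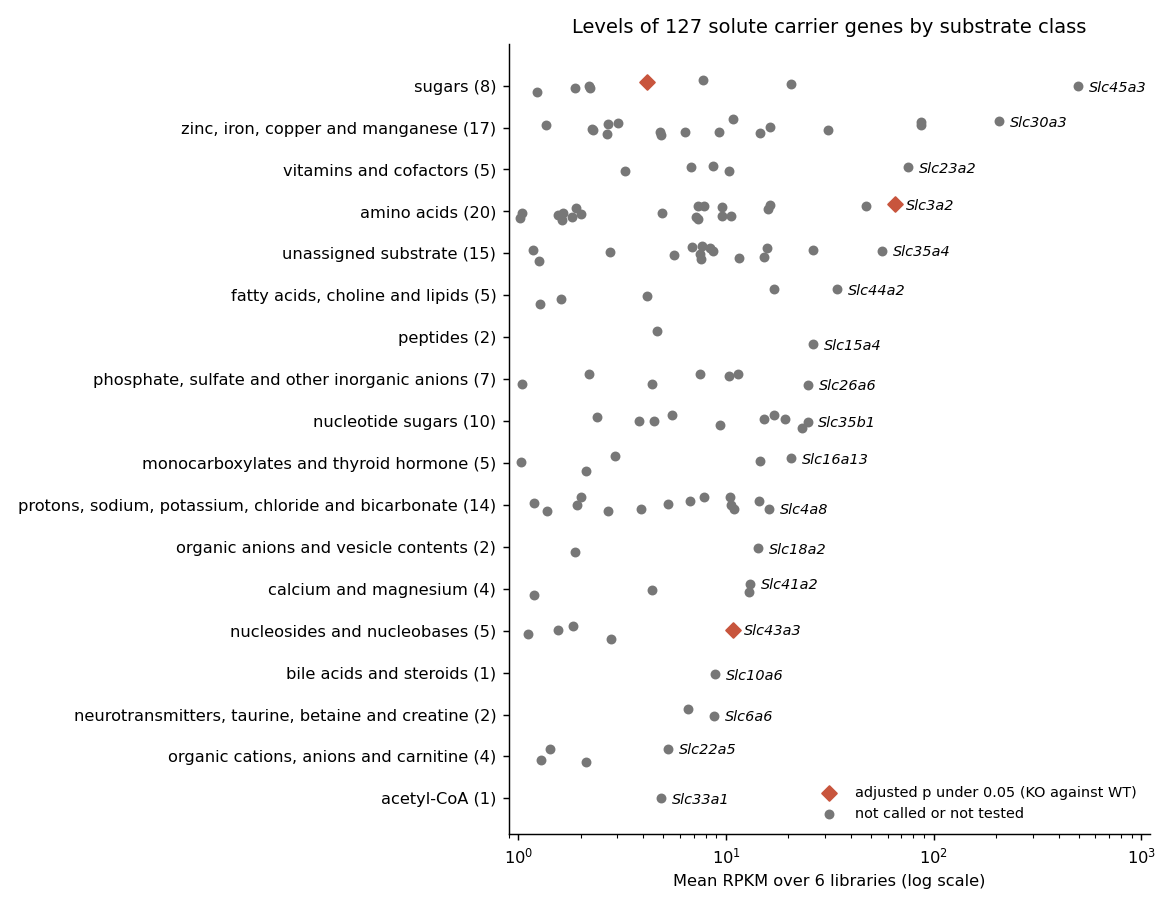
Mean RPKM over 6 libraries (log axis) of the 127 solute carrier genes, 1 point a gene, in rows by substrate class with the number of genes in brackets. The highest gene of each class is named, from Slc45a3 at 498 RPKM down to Slc33a1 at 4.85 RPKM, and diamonds mark the 3 genes with an adjusted p under 0.05 between KO and WT.

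The distribution of levels was steep. Only 2 members exceeded 100 RPKM, 41 lay between 10 and 100 RPKM and 84 between 1 and 10 RPKM, and 5 genes held 46.4% of the summed RPKM. The median of the members was 6.75 RPKM, beside 6.97 RPKM over all 12272 tested genes. In the mitochondrial Slc25 family, 32 of 47 genes (68.1%) reached a mean of 1 RPKM, and the median of those was 11.3 RPKM. The summed RPKM of all 127 members was 2038 ± 46.1 in WT and 2078 ± 37.6 in KO (SD, n = 3 each). The median coefficient of variation (the SD as a percentage of the mean) was 8.22% in WT and 10.3% in KO, beside 8.19% and 10.5% over all tested genes.

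The comparison of genotypes asked which carriers differ in oocytes without Khdc3. Slc43a3, Slc2a12 and Slc3a2 rose in KO, and no member was called lower at these settings. A gene entered the test with 1 RPKM or more in at least 3 of 6 libraries, which 125 of the 127 members met. The other two, Slc5a5 and Slc6a14, were not tested. Values were compared as log2(RPKM + 1) with limma, with Benjamini-Hochberg adjustment over all tested genes. The 3 called members are 2.40% of those tested, near the background of 2.74% over all genes. In the direction higher in KO, the background was 1.6%, and lower in KO it was 1.14%. At an unadjusted p under 0.05, 20 members passed, 11 higher and 9 lower (16.0% against 19.0% of all tested genes). For 0 members called lower in KO, the count at that unadjusted p was thus 9, and limma voom on recovered reads also gave 0. Slc35b2 was called lower with a filter of 5 RPKM, under rescaling to equal sums, median of ratios and median centring, and library weights called 3 members lower. The median log2 change of the members was 0.02, beside 0.01 over all genes, and 90 of 125 (72.0%) lay within 0.2 of 0, beside 71.2% of all genes. The KO and WT values did not overlap in 27 tested members (21.6%), 14 higher and 13 lower in KO, beside a background of 25.8% of all tested genes. Among them, Slc7a7 (higher) entered the test through its KO libraries alone and Slc15a5 (lower) through its WT libraries alone. Slc15a5 is also among the 9 lower at the unadjusted p. In Slc25, 0 of 32 tested genes were called, with a median log2 change of -0.01.

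**Figure D2:**
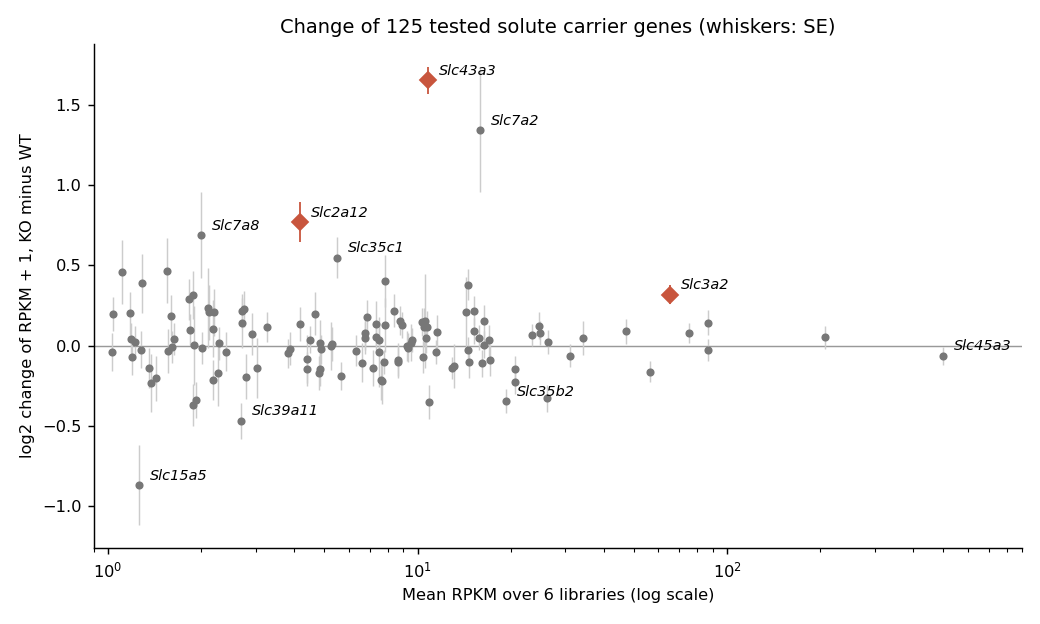
Log2 change of RPKM + 1 (KO minus WT, whiskers SE) against the mean RPKM over 6 libraries (log axis) for the 125 tested solute carrier genes. Most points lie near 0, the 3 called genes are red diamonds above 0 (Slc43a3 at 1.65, Slc2a12 at 0.77, Slc3a2 at 0.32), and Slc7a2 at 1.34 has a wide error.

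Slc43a3 showed the strongest change of any member. It stood at 4.97, 4.83 and 4.35 RPKM in WT replicates 1, 2 and 3 and at 16.8, 16.1 and 18.0 RPKM in KO replicates 1, 2 and 3, which rest on 769 to 876 reads in WT and 2900 to 3492 reads in KO. Every KO library was more than 3 times as high as every WT library, and the groups were far apart relative to their spread. The means were 4.72 ± 0.326 and 17.0 ± 0.996 RPKM (SD, n = 3 each), a ratio of 3.60 and 1.65 ± 0.08 on the log2 scale (SE; limma adjusted p = 5.8e-05). Slc43a3 lies on chromosome 2 (84936579 to 84958509, GRCm38). Of 11 other tested genes that start within 1 Mb, 1 was called, Zdhhc5, a palmitoyltransferase that starts 221399 bases away and was lower in KO (log2 change -0.78, adjusted p = 0.0072). The other 4 nucleoside and nucleobase carriers were not called, with adjusted p of 0.26 to 0.91. Their summed level was 7.12 ± 0.722 RPKM in WT libraries and 7.45 ± 0.657 RPKM in KO libraries (SD, n = 3 each), against 11.8 ± 1.02 and 24.4 ± 1.47 RPKM with Slc43a3.

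Slc2a12, a member of the glucose transporter family also known as GLUT12, stood at 3.09, 2.44 and 2.90 RPKM in WT and 5.80, 4.59 and 6.14 RPKM in KO (replicates 1, 2 and 3). The lowest KO library was above the highest WT library. The ratio of the means was 1.96 and the log2 change 0.77 ± 0.12 (SE; limma adjusted p = 0.019). The call was lost when WT replicate 2 (adjusted p = 0.066) or 3 (0.062), or KO replicate 1 (0.0504) or 3 (0.070), was left out, and with no filter on low values (0.089). Its span (chromosome 10, 22645011 to 22704285, GRCm38) overlaps the end of Tbpl1 on the opposite strand. The labels do not say whether counting used strand. Tbpl1 stood at 4.24, 5.91 and 5.76 RPKM in WT and 3.98, 4.34 and 4.42 RPKM in KO, the opposite direction (adjusted p = 0.31). None of the 5 other tested genes within 1 Mb was called. The 7 other sugar carriers were not called, with adjusted p of 0.18 to 0.94, among them Slc2a1.

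Slc3a2, the heavy chain of the amino acid exchangers, stood at 57.45, 59.4 and 57.2 RPKM in WT and 72.1, 70.2 and 75.2 RPKM in KO (replicates 1, 2 and 3). The KO libraries were all above the WT libraries, with a narrow spread in both groups. The ratio of the means was 1.25 and the log2 change 0.32 ± 0.06 (SE; limma adjusted p = 0.034). The call was lost without any 1 library other than KO replicate 1 (adjusted p = 0.083 to 0.121, and 0.042 without KO replicate 1), with the replicate number as a block (0.089), with no filter on low values (0.087) and under rescaling to equal RPKM sums (0.051) or median centring (0.054). Slc3a2 lies on chromosome 19 (8706882 to 8723369, GRCm38), and none of the 19 other tested genes within 1 Mb was called.

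The light chains that pair with the product of Slc3a2 were not called. Slc7a5 stood at 14.2, 16.1 and 16.0 RPKM in WT and 15.0, 19.0 and 18.0 RPKM in KO (replicates 1, 2 and 3; log2 change 0.15 ± 0.10, SE; limma adjusted p = 0.45), with overlapping groups. Slc7a11 was nearly level at 9.47 ± 0.575 and 9.71 ± 0.156 RPKM (SD, n = 3 each; adjusted p = 0.85) and so was Slc7a6, the y+LAT2 exchanger, at 1.52 to 1.75 RPKM in WT and 1.545 to 1.79 RPKM in KO (0.87). Slc7a7, or y+LAT1, was at 0.895 ± 0.0173 and 1.18 ± 0.154 RPKM (0.35), and it entered the test through its KO libraries alone, and Slc7a8, or LAT2, at 1.34 ± 0.808 and 2.65 ± 0.708 RPKM (0.22).

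**Figure D3:**
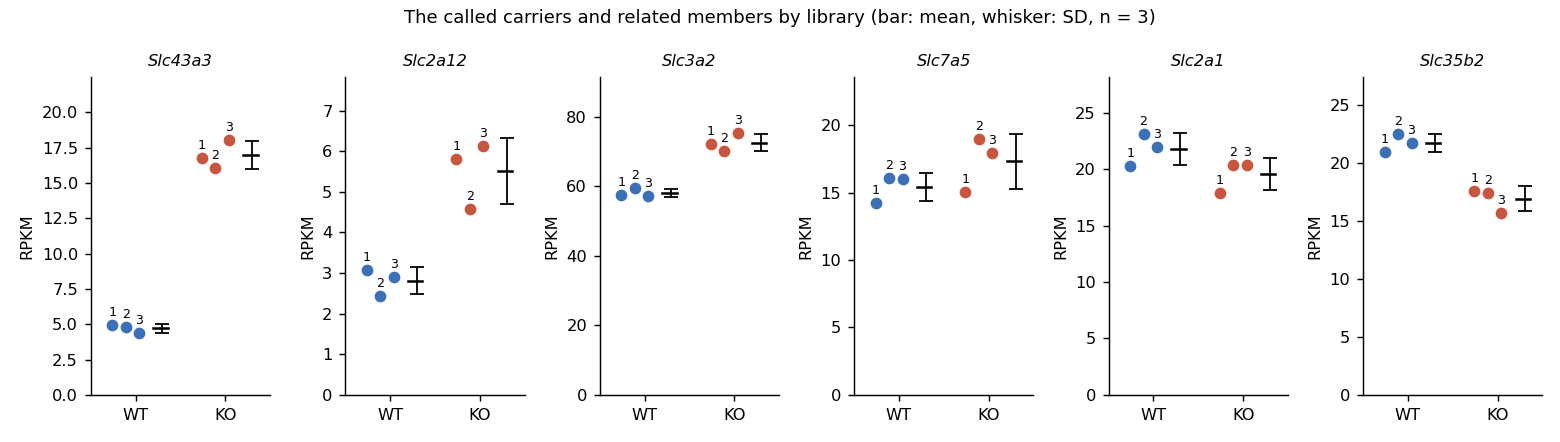
RPKM in each library (points numbered by replicate) with the mean and SD (n = 3) for WT and KO, each panel on its own axis from 0. Slc43a3, Slc2a12 and Slc3a2 are separated between genotypes, while Slc7a5 and Slc2a1 overlap, and Slc35b2 lies at 15.7 to 17.6 RPKM in KO against 20.9 to 22.5 RPKM in WT.

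Most tested amino acid carriers had a positive change in KO, but genes of a class are not replicates of a genotype. Of the 19 tested, 16 had a positive change and 3 a negative change, and 1 was called. Slc7a7, among the 16, entered the test through its KO libraries alone. The median log2 change of the 19 was 0.13, beside 0.01 over all genes. The 20 members summed to 202 ± 12.4 RPKM in WT libraries and 241 ± 18.6 RPKM in KO libraries (SD, n = 3 each). Without Slc3a2 and Slc7a2 the sums were 135 ± 4.34 and 146 ± 14.3 RPKM, and the groups overlapped. These sums were 133.6, 139.3 and 130.8 RPKM in WT and 133.6, 143.5 and 161.9 RPKM in KO (replicates 1, 2 and 3). Of the 12 granulosa and cumulus markers, all 12 had a positive change and a mean above 1 RPKM. Their log2 changes ran from 0.017 for Nr5a2 to 1.18 for Inhba. Their summed RPKM was 136.6 to 261 in WT and 306.5 to 413 in KO. Inha alone held most of this sum in every library, at 103.8 to 203.3 RPKM in WT and 226.8 to 310.3 RPKM in KO. None of the 12 was called by limma, and 4 passed an unadjusted p under 0.05. Stroma, smooth muscle and surface epithelium markers had a positive change in 6 of 7 tested genes and summed to 23.7 to 31.7 RPKM in WT and 31.0 to 41.1 RPKM in KO. Acta2, smooth muscle actin, was the one gene called in any marker list (log2 change 0.76, limma adjusted p = 0.034), and 3 of the 10 had a mean under 1 RPKM. In bulk RNA, more cells of a type and more RNA per cell cannot be told apart. The part of follicle and stromal cell RNA in the amino acid carriers was not tested.

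Several amino acid carriers varied widely between libraries of 1 genotype. Slc7a2 stood at 6.57, 17.4 and 4.47 RPKM in WT and 18.7, 24.0 and 24.1 RPKM in KO (replicates 1, 2 and 3). WT replicate 2 lay close to the KO libraries and the other WT libraries lay far below. The log2 change was 1.34 ± 0.38 (SE; limma adjusted p = 0.12), and it was 1.85 without WT replicate 2 (adjusted p = 0.0029) and 0.97 without WT replicate 3 (0.24). WT replicate 2 also stood apart in the 6 theca and luteal markers, which summed to 29.9, 131.6 and 23.8 RPKM in WT and 102, 125 and 121 RPKM in KO. Of these 6 genes 4 were tested, 3 had a positive change, none was called by limma and 1 had a mean under 1 RPKM. Hsd3b1, a steroid dehydrogenase, held most of the sum, and Insl3 was listed at 0 in KO replicate 2. The part of these cells in the level of Slc7a2 was not tested.

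Slc7a8 and Slc38a2, a sodium-coupled carrier of neutral amino acids, had their lowest value in WT replicate 3, at 0.450 and 0.655 RPKM, against 1.29 to 3.47 RPKM in the KO libraries of both genes. WT replicate 3 also had the lowest granulosa sum, 136.6 RPKM, a sum held mostly by Inha in every library. Slc38a5, a carrier of glutamine and related amino acids, stood at 10.9, 8.72 and 8.89 RPKM in WT and 7.21, 8.62 and 19.0 RPKM in KO (replicates 1, 2 and 3). KO replicate 3 was thus high by itself, and it was also the library with the highest granulosa sum, 413 RPKM, and the highest level of Gja1, the connexin of granulosa cells, at 29.4 RPKM against 7.33 to 19.0 RPKM in the others. Without KO replicate 3 the log2 change of Slc38a5 was -0.24 (limma adjusted p = 0.42), and with it 0.15 (0.82). The part of granulosa RNA in these values was not tested.

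**Figure D4:**
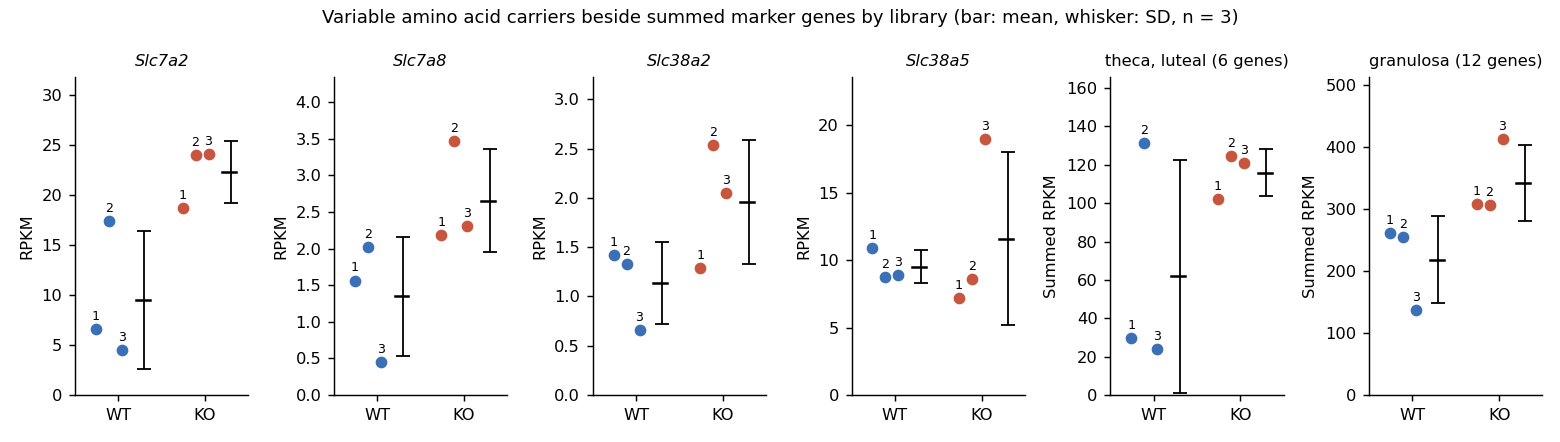
RPKM by library (points numbered by replicate, mean and SD, n = 3) of 4 amino acid carriers, beside the summed RPKM of 6 theca and luteal and 12 granulosa and cumulus markers, each panel from 0. WT replicate 2 is high in Slc7a2 (17.4 RPKM) and in the theca sum (131.6 RPKM), and KO replicate 3 is high in Slc38a5 (19.0 RPKM) and in the granulosa sum (413 RPKM). Hsd3b1 holds most of the theca sum and Inha most of the granulosa sum.

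Golgi carriers that supply donors for glycosylation and sulfation included members close to the threshold in both directions. Slc35b2, which imports the sulfate donor PAPS, stood at 20.9, 22.5 and 21.7 RPKM in WT and 17.6, 17.4 and 15.7 RPKM in KO (replicates 1, 2 and 3; log2 change -0.35 ± 0.07, SE; limma adjusted p = 0.056). It was called lower in KO under rescaling to equal sums, median of ratios, median centring, library weights and a filter of 5 RPKM (adjusted p = 0.025 to 0.049). Slc35c1, the Golgi importer of GDP-fucose, stood at 4.16, 5.25 and 3.49 RPKM in WT and 6.29, 6.79 and 6.96 RPKM in KO (log2 change 0.55 ± 0.13, SE; adjusted p = 0.070), and was called without WT replicate 2 (0.043), with library weights (0.0498) and with voom (0.048). Slc35e4, of unassigned substrate, was at 29.2 ± 1.26 and 23.1 ± 2.21 RPKM (SD, n = 3 each; adjusted p = 0.090). The 10 members classed here as nucleotide sugar carriers summed to 124 ± 2.99 RPKM in WT and 126 ± 1.83 RPKM in KO. Slc35c1 is among them, and so is Slc35b2, although its substrate PAPS is a sulfate donor. The class follows the carrier family, so Slc35b2 need not be the only member that carries no nucleotide sugar.

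Among ion carriers, Slc9b1 had 13.1, 11.7 and 12.5 RPKM in WT and 18.8, 14.8 and 16.1 RPKM in KO (replicates in order; limma adjusted p = 0.088), with no overlap. Slc9a3, the sodium and proton exchanger NHE3, had 11.7, 12.9 and 12.4 RPKM in WT and 8.07, 10.8 and 9.68 RPKM in KO (adjusted p = 0.14), also with no overlap. None of the 14 was called, and 7 had a positive and 7 a negative change. The lowest change of all members belonged to Slc15a5, at 3.15, 1.61 and 1.10 RPKM in WT and 0.842, 0.281 and 0.583 RPKM in KO (log2 change -0.87 ± 0.25, SE; adjusted p = 0.12). It entered the test through its WT libraries alone. Its reads numbered 337 in WT replicate 1 and 35 in KO replicate 2. Slc5a10, a sugar cotransporter, averaged 2.23 ± 0.229 RPKM in WT libraries and 1.51 ± 0.346 RPKM in KO libraries (SD, n = 3 each; limma adjusted p = 0.18).

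Genes that work beside the carriers were read from a list of 40, of which 37 were found by symbol and 27 tested. Aqp9 and Slc9a3r1 were called, both lower in KO, and none was called higher. That is 7.41% of those tested, beside 2.74% of all tested genes in either direction and 1.14% lower. The list was chosen with earlier results known and has few genes. Aqp9, a channel for water and glycerol, stood at 7.70, 8.15 and 5.78 RPKM in WT and 3.89, 3.46 and 3.29 RPKM in KO (replicates 1, 2 and 3; log2 change -0.84 ± 0.13, SE; limma adjusted p = 0.016). Aqp9 lies on chromosome 9 (71110659 to 71168682, GRCm38), and so does Khdc3 (73101836 to 73104438). Whether the change of Aqp9 is tied to this position was not tested. Slc9a3r1, or NHERF1, a scaffold that binds NHE3, stood at 30.6, 31.3 and 32.2 RPKM in WT and 26.2, 24.1 and 23.6 RPKM in KO (log2 change -0.34 ± 0.07, SE; adjusted p = 0.044). The call of Aqp9 was lost when WT replicate 2 (0.056) or KO replicate 2 (0.061) or 3 (0.063) was left out, and that of Slc9a3r1 without any 1 library other than KO replicate 1 (0.101 to 0.147), with the replicate block (0.097) and with voom (0.057). Both were lost with no filter (0.084 and 0.108). The sodium pump subunit gene Atp1b3 (91.2 ± 4.02 and 97.0 ± 4.17 RPKM), the gap junction gene Gja4 (540 ± 19.8 and 504 ± 41.9 RPKM), the MCT1 partner Bsg (77.3 ± 2.86 and 84.0 ± 8.01 RPKM) and the zinc-responsive factor gene Mtf1 (28.0 ± 1.90 and 28.1 ± 0.261 RPKM) were not called (WT and KO, SD, n = 3 each).

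The selection rule kept 2 carriers apart, Slc14a1 and Slc38a4. Slc14a1, a urea transporter, was listed at 0 in 2 WT libraries and at 0.0557 RPKM in WT replicate 3, and was at 13.3, 13.1 and 12.7 RPKM in the KO libraries (limma adjusted p = 5.8e-07). Slc38a4 was at 0.0116 to 0.149 RPKM in WT and 0.108 to 0.217 RPKM in KO and was not tested. Of the 125 tested members, 37 (29.6%) had at least 1 called gene that starts within 1 Mb, beside 23.5% of 10285 tested genes with a position. In 23 members the gene span overlaps another protein-coding gene, so their read numbers may be shared where counting ignored strand.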

How the data were processed

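RNA of mouse oocytes was sequenced in 6 libraries, 3 WT and 3 KO, grouped by title. Per the labels' protocols, libraries were made with a strand-keeping NEB kit. FastQC 0.11.7, STAR 2.6.0c, featureCounts 1.6.2 and the build GRCm38.p6 were used, per the submitters' processing notes. The authors deposited 1 table of RPKM values for 53656 gene symbols. Members were matched to GENCODE M21 for positions (127 of 127). Multiplied by its exon lengths, the values came out whole within 0.01 for 92.4% of 19862 expressed genes, which gave library totals of 34640170 to 43343444 reads.

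Values were tested as log2(RPKM + 1), which understates the change of low genes, with limma 3.58.1 in R 4.3.3 (trended prior, genotype as the only covariate) on 12272 genes with 1 RPKM or more in at least 3 of 6 libraries, and called at a Benjamini-Hochberg adjusted p under 0.05. Tables were handled with Python 3.11.15 and pandas 2.3.3. The fit was tested on simulated reads. No pair of libraries of the same genotype looked like 1 library deposited more than once (chi-square over degrees of freedom at least 16.1). Pairs of a WT and a KO library were not compared in this way. The smallest p that exact permutation of 3 against 3 libraries allows is 0.1, so no such test is given.

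Substrate classes follow the carrier family, with exceptions by gene. The classes, the members, the marker and partner lists and the named genes (called members, the 3 highest of each class, the 5 largest changes each way, carriers known from oocytes or follicles, those beside the threshold, and members whose call changes) were chosen with earlier results of these data known. 5 carriers without an agreed substrate were moved to the unassigned class after their levels were seen. The promoter windows, their motifs, the distances between members, and members named beyond that rule (those under an unadjusted p of 0.05 and those that vary between libraries) were also chosen after values were seen. Alternatives were other pseudocounts, filters, scalings and thresholds, library weights, a robust prior, the replicate block, leaving out each library, and voom on recovered reads with plain library totals. No sequencing batch is named in the labels. Values of 4 genes are not reported here.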

Additional observations from a re-analysis of the deposited data

How the results depend on the processing

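Of 3 called members, Slc43a3 was called under every alternative run. The count was 1 with no filter, 7 with library weights (4 higher), 8 at an adjusted p under 0.1 (5 higher), 1 at 0.01, and 1 to 3 when each library was left out in turn, at 1 without WT replicate 3 or without KO replicate 3. The 4 added by library weights were Slc15a5 (adjusted p = 0.0498), Slc35b2, Slc35c1 and Slc35e4 (0.043). Over all genes 336 were called, 94 with no filter, 662 with library weights and 151 to 289 when each library was left out. Of the 27 tested partner genes, 2 were called, 0 with no filter, 1 with the replicate block, 1 with voom and 0 to 3 when each library was left out. With only members of 5 RPKM or more, the log2 ratio of the summed nucleoside and nucleobase carriers was 1.85, when Slc43a3 was the one gene left, and the acetyl-CoA class was empty. A filter of 5 RPKM left 75 members and removed Slc2a12. The window of 2 Mb left the called neighbours at 1 for Slc43a3 and 0 for the other called members.

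For 70 named or reported genes, 1168 results under alternatives were compared, of which 1102 kept direction and call and 29 reversed direction. No reversed change was called on either side, and the cause was not tested. With each library left out in turn, the log2 change ran from -0.018 to 0.078 for Slc15a4, -0.166 to 0.122 for Slc22a5, -0.116 to 0.135 for Slc30a1, -0.015 to 0.087 for Slc30a3 and -0.241 to 0.172 for Slc38a3. It ran from -0.236 to 0.405 for Slc38a5, -0.074 to 0.004 for Slc39a6, -0.189 to 0.048 for Slc41a1, -0.018 to 0.164 for Slc44a2 and -0.06 to 0.022 for Slc4a2. It ran from -0.009 to 0.186 for Slc5a12, -0.116 to 0.028 for Slc5a8, -0.198 to 0.015 for Slc6a4 and -0.007 to 0.072 for Slc7a11. Library weights gave 0.073 for Slc22a5 and -0.094 for Slc30a1. Slc38a3 was at -0.009 under rescaling to equal sums, -0.005 under median of ratios and -0.009 under median centring, and Slc30a1 at -0.001 under rescaling. With the replicate block, 320 genes and 2 members were called (Slc43a3, adjusted p = 8.9e-04, and Slc2a12, 0.019). Between same-numbered libraries, deviations from the group means correlated at -0.02, 0.21 and -0.03 for replicates 1, 2 and 3. Between differently numbered WT and KO libraries the correlations ran from -0.155 to 0.153. The 5 erythroid (red blood cell) markers summed to 70.2, 16.8 and 17.5 RPKM in WT and 71.4, 14.2 and 8.88 RPKM in KO (replicates in order). These values cannot tell whether the numbers pair samples.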
